A study of Mus musculus with 24 samples.

Results

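The histone genes were examined as a group in RNA-seq of mouse embryonic stem cells (mESCs). They are the 65 genes, of 24594 in the counts table, whose symbol or synonym begins with H1-, H2ac, H2bc, H3c or H4c followed by a number. Of these, 10 code for the linker histone H1, 15 for H2A, 16 for H2B, 12 for H3 and 12 for H4. A further 4 genes of the reference annotation match the same rule and were not analysed here. In the mouse genome build GRCm38 (mm10), 52 of the 65 genes lie in a cluster on chromosome 13 between positions 21715711 and 23934913, and 9 lie in a cluster on chromosome 3 between 96219885 and 96270192. The other 4 (H1f0 and H1f7 on chromosome 15, H1f8 and H1f10 on chromosome 6) lie outside both clusters.

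The cells were 129S6/SvEvTac mESCs grown on gelatin with serum and leukaemia inhibitory factor. In each mutant line CRISPR–Cas9 was used to delete 1 accessory subunit of the ISWI chromatin remodelers, a family of nucleosome-moving enzymes: Rsf1, Wstf (gene Baz1b), Tip5 (gene Baz2a), Acf1 (gene Baz1a), Bptf or Cecr2. The 24 libraries were made in 5 batches, each with its own wild-type (WT) libraries: 2 WT, 2 Rsf1Δ and 2 WstfΔ in batch A, 2 WT and 2 Tip5Δ in batch B, 2 WT and 2 BptfΔ in batch C, 3 WT and 3 Cecr2Δ in batch D, and 2 WT and 2 Acf1Δ in batch E. Because Acf1 has alternative isoforms, its line went through editing more than once. Each line was 1 clone, so clone and deletion cannot be told apart, and the libraries of a group are described as biological replicates, without a statement of whether they were separate cultures. The p-values below therefore measure the spread between libraries of a clone.

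Histones are the proteins around which DNA is wound: H2A, H2B, H3 and H4 form the nucleosome core and H1 binds the linker DNA between cores. Most histone genes are replication-dependent: they lie in clusters, are transcribed mainly in S phase, and give short mRNAs that end in a conserved stem-loop bound by SLBP in place of a poly(A) tail. A few, such as H1f0, H1f10 and most replacement variants outside the clusters, are made throughout the cell cycle and carry a poly(A) tail. A library made by poly(A) selection therefore holds them and loses most of the others.

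The stem-loop was read from the longest coding transcript of each histone gene in the GRCm38 annotation by searching for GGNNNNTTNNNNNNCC in which the last 6 bases can pair with the first 6. It was found in 38 of the 65 histone genes and in 19 of 9409 other genes with transcripts of similar length (0.202%). The sequences are shown because this 3′ element sets the replication-dependent mRNAs apart from polyadenylated ones. Capitals mark the paired stem and lower case the loop.
H1, H2A, H2B and H3, 21 genes: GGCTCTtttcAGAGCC
H1, H2B and H3, 6 genes: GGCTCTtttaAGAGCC
H2A, 1 gene: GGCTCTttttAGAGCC
H4, 6 genes: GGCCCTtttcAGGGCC
H4, 2 genes: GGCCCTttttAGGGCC
H4, 2 genes: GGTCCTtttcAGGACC

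The stem of every H4 match differed from the stem shared by H1, H2A, H2B and H3. By type, 4 of 10 H1, 8 of 15 H2A, 8 of 16 H2B, 8 of 12 H3 and 10 of 12 H4 genes had a match. The annotated transcripts of 11 of the 27 genes without one are coding sequence alone, so the region where a stem-loop would lie was not covered. Whether the transcripts of the other 16 reach that region was not checked, so they may have a stem-loop that was missed. No match was found in H1f0, H1f10, H2bc4 or H2bc21. The polyadenylation hexamer AATAAA stood within the last 50 bases of 13 histone transcripts.

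Promoter letters differed between the types as well. In the 250 bases before to 50 bases after the start of each gene (RefSeq, GRCm38.p6, 60 histone genes matched), the CCAAT box on either strand was present in 15 of 15 H2A, 14 of 14 H2B and 10 of 10 H3 promoters, in 7 of 10 H1 promoters and in 3 of 11 H4 promoters, against 37.9% of 27025 promoters of all genes. The octamer ATTTGCAT, the site of POU factors such as OCT1 and OCT4, was present on either strand in 6 of 15 H2A and 6 of 14 H2B promoters and in none of the H1, H3 or H4 promoters, against 1.75% of all promoters. TATAAA was present on either strand in 34 of the 60, against 14.2% of all promoters. These counts are not all separate matches: 9 pairs of neighbouring H2A and H2B genes have overlapping windows, so 32 of the 100 genome positions with CCAAT and 3 of the 9 with the octamer were counted for both genes of a pair. A match describes the letters alone. The 250 bases before the starts of H2ac4 and H4c6, which had the highest per-kilobase levels of their types in WT cells of batch C, show the contrast between an H2A and an H4 promoter. Capitals mark matches on either strand to the octamer, CCAAT and TATAAA.
H2ac4, chr13:23750838-23751087, plus strand: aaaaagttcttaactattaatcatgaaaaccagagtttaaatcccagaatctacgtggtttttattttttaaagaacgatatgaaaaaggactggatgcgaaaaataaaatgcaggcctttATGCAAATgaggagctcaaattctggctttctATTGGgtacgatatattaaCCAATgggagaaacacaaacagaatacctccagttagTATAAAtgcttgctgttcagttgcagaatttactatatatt
H4c6, chr13:23551669-23551918, minus strand: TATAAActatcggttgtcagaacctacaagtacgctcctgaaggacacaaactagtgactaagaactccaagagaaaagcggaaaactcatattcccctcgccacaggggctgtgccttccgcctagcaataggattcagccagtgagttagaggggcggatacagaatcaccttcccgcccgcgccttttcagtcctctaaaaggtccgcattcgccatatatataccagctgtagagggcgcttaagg

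Libraries held 13.4 to 36.7 M counts (median 25.0 M), and those of batch C 16.8 to 18.9 M. Levels are given as normalized CPM, the count per gene scaled for the size and composition of each library. The targeted gene was lower in 4 lines (log2 fold changes of -2.26 for Rsf1, -2.40 for Baz1b, -1.72 for Baz1a and -1.97 for Bptf). Baz2a in the Tip5Δ line (-0.26, adjusted p = 0.0533, edgeR) did not pass the test, and the Cecr2Δ-labelled libraries held more Cecr2 mRNA than WT and not less (0.37, adjusted p = 0.000154, edgeR). An edited gene need not lose its mRNA, and the study's methods state that clones were checked by protein blot and by sequencing of their DNA. The study reports that the deleted subunit was not detectable by western blot in any of its deletion lines. The labels give every library as poly(A) RNA, but batch C stood apart: the summed level of 9 RNAs known to lack a poly(A) tail, such as Rpph1 and Rmrp, was 4094 to 5661 in its 4 libraries and 0.479 to 6.60 in the other 20. Batch C is therefore described separately throughout.

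Histone mRNA was abundant in batch C and scarce in the other batches. The level summed over the 65 genes was 4594 and 4488 in WT of batch C, against 102 and 95.3 in batch A, 148 and 145 in batch B, 87.7, 92.5 and 96.0 in batch D, and 178 and 166 in batch E. The WT libraries of batch C did not overlap those of the other batches, and their mean was 36.8 times higher. By type the ratio was 21.4 for H1, 75.9 for H2B, 118 for H2A, 222 for H4 and 232 for H3. These ratios depend on the member of each type with the highest level outside batch C: they were 96.2 without H1f0, 328 without H2bc4, 204 without H2ac12, 493 without H4c9 and 427 without H3c14, an alternative chosen after seeing the data. The tailless RNAs move with this difference, and batch and RNA type cannot be told apart.

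**Figure D1:**
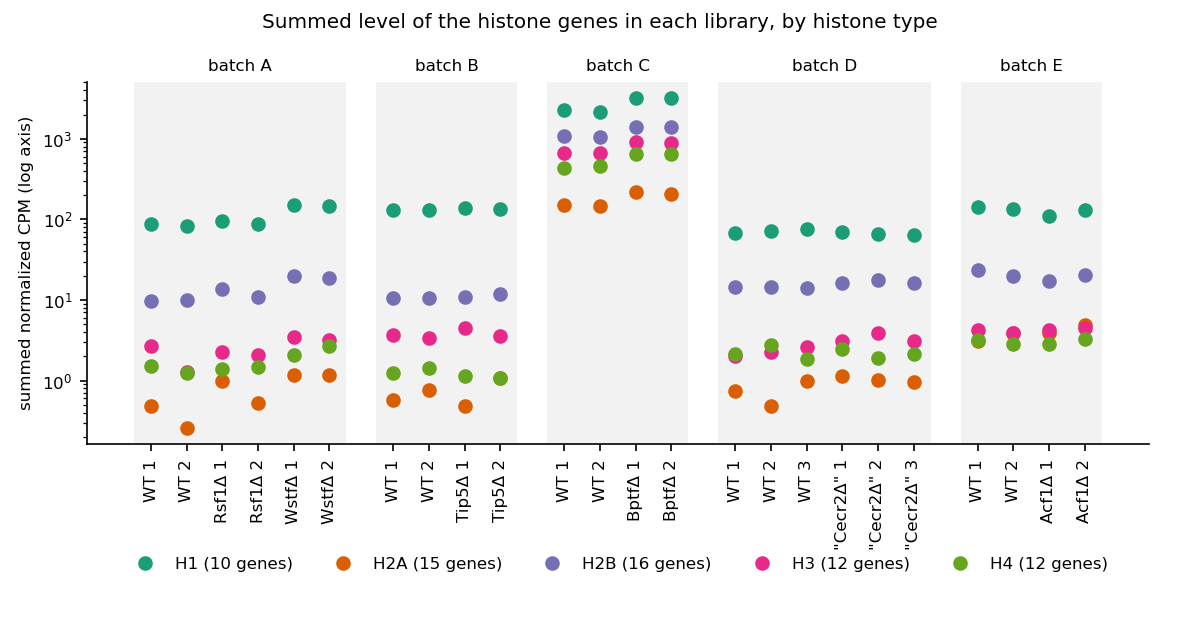
Summed level of the histone genes of each type (normalized CPM, log axis) in each of the 24 libraries, grouped by genotype and batch. The 4 libraries of batch C lie far above the other 20 for every type, and within batch C the BptfΔ libraries lie above WT.

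Linker histone genes made up the largest part of the histone sum in WT cells of batch C. The H1 genes summed to 2204 ± 63.1 (SD, n = 2), 48.5% of the histone total, followed by H2B with 1075 ± 22.5 (23.7%), H3 with 667 ± 4.53 (14.7%), H4 with 448 ± 17.3 (9.86%) and H2A with 147 ± 1.82 (3.25%). In WT libraries of the other batches H1 made up 83.5% of the far smaller total and H2B 11.5%. Most of that total was H1f0, at 49.4 to 111 per library. These shares count reads, which depend on transcript length and on how reads shared by near-identical copies were treated.

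Compared per kilobase of the gene length in the counts table, the leading members in WT cells of batch C were H2bc18 (1472 CPM per kb), the replication-dependent linker histone genes H1f1 (949.6) and H1f5 (542), and H2bc3 (208). H2bc18 held 52.2% of the H2B sum, although its annotated model is coding sequence alone and overlaps other annotated genes, so part of its count may belong to a neighbour. H1f1 held 31.9% of the H1 sum and H1f3 24.2%, the latter with a model long enough to bring H1f3 down to 71.9 CPM per kb. In the other types the leading members were H3c2 (190.1 CPM per kb), H3c8 (146), H4c6 (136), H4c4 (118), H2ac4 (82.1) and H2ac20 (55.3). Among the lower H1 genes in batch C, H1f6, a testis linker histone gene, reached 7.01 CPM per kb and H1f10 reached 1.90. Members of other types were also low, such as H3c14 (0.83) and H2bc21 (0.801). H2bc1, an H2B gene known from testis, was at 60.6. H1f7 and H1f8, known from testis and oocyte, were near 0.

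Many histone genes share sequence, and how reads with several matches or in overlapping genes were counted, and whether strand was used, is not given in the sources used here. Of the 50-base words in a member's transcript, the median share found in no other transcript was 100% for H1 genes, 60.1% for H4, 55.5% for H2B, 42.8% for H3 and 32.9% for H2A. Levels of single H2A, H2B, H3 and H4 genes are therefore less certain than the sums by type and than the H1 genes.

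A gene was counted as seen in a batch when its mean over that batch's libraries was at least 10 counts. By this measure 60 members were seen in batch C, against 7 in batch A, 9 in batch B, 13 in batch D and 16 in batch E. Only 7 were seen in each of A, B, D and E: H1f0, H1f2, H1f10, H2bc4, H2bc21, H3c14 and H4c9. AATAAA stood in the last 50 bases of 5 of these 7 and of 8 of the other 58.

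Gene by gene, WT batch C was compared with the average of the other WT batches by edgeR's quasi-likelihood test. A call here and below is an adjusted p under 0.01 with a log2 fold change beyond 1 in either direction. Of the 63 members tested, 59 were called higher and 1 lower, against 3.14% higher and 4.01% lower among all 15682 genes tested. The median log2 fold change of the members was 8.83, against -0.04 over all genes. These counts carry little weight, because 41 of the 63 reached 10 counts in fewer than 2 of the 20 libraries outside batch C and thus entered the test through batch C alone. For 21 members no WT library outside batch C held more than 3 counts. Of these, 19 had more than 3 counts in a WT library of batch C, where they were at least 2.83-fold to at least 488-fold higher than the level of 3 counts per library (median bound 55.0). H4c6 had the highest bound, with 52.9 and 53.7 in batch C. Such bounds are ratios to a fixed level of 3 counts and hold no measure of error, neither of counting nor between libraries.

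The 7 members seen in every batch behaved differently from each other. H1f2, a replication-dependent linker histone gene, was 316 and 299 in WT of batch C and 2.51 to 6.59 (median 5.02) in the other 9 WT libraries. The ranges lie far apart, with a log2 fold change of 6.02 (SE 0.066, adjusted p = 1.12e-30, edgeR). H4c9 was likewise higher (23.3 and 27.5, against 0.498 to 1.92, log2 fold change 4.53), and H3c14 less so (2.57 and 2.33, against 0.455 to 2.54, 1.06, adjusted p = 0.000223, edgeR). For H3c14 the ranges overlap. Of the members not seen in every batch, H2ac8 was 9.87 and 9.51 in batch C and 0.0431 to 0.407 (median 0.268) in the other WT libraries, and H4c2 was 32.9 and 35.3 against 0 to 0.259 (median 0.111).

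Of the 4 linker histone genes outside the clusters, H1f10 and H1f0 were lower in batch C, and H1f7 and H1f8 had too few counts to be tested. H1f10 was 2.05 and 2.57 in batch C and 5.94 to 31.7 (median 14.2) in the other WT libraries, with no overlap and a log2 fold change of -2.62 (SE 0.19, adjusted p = 4.54e-12, edgeR). H1f0, a replacement linker histone typical of slowly dividing cells, was 58.7 and 54.9 against 49.4 to 111 (median 73.9), with a log2 fold change of -0.51 (adjusted p = 7.61e-08, edgeR) although the ranges overlap. H2bc4 was 10.7 and 10.6 against 5.99 to 20.3 (log2 fold change 0.11) and H2bc21 was 2.15 and 2.04 against 0.997 to 2.41 (0.18). Neither H2bc4 nor H2bc21 passed the test.

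**Figure D2:**
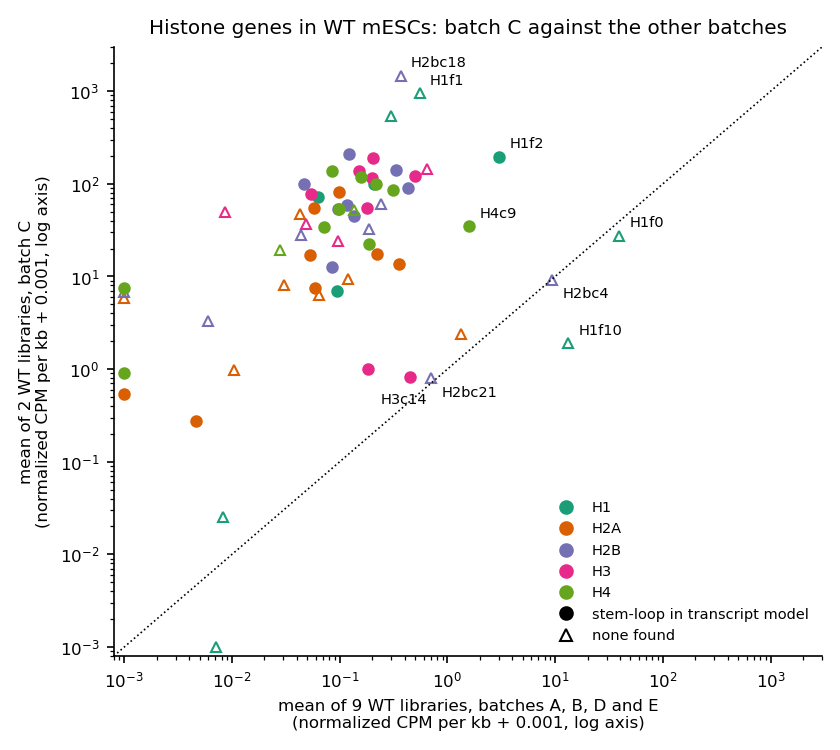
Mean level of each histone gene in the 2 WT libraries of batch C (vertical) against its mean over the 9 WT libraries of batches A, B, D and E (horizontal), both in normalized CPM per kb plus 0.001 on log axes, coloured by type, with filled circles where a stem-loop was found and open triangles where none was. Most points lie far above the dotted line of equal level, while H2bc4 and H2bc21 lie on it, H1f0 and H1f10 below it, and the untested H1f7 and H1f8 near the origin.

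BPTF is the large subunit of the NURF complex. In batch C the summed histone level was 4594 and 4488 in WT and 6394 and 6339.8 in BptfΔ, with no overlap and a log2 ratio of 0.49. All types had a higher sum in BptfΔ, with log2 ratios of 0.53 for H1, H2A and H4, 0.45 for H3 and 0.39 for H2B. Within each type both BptfΔ libraries lay above both WT libraries. In bulk samples more cells of a kind, here cells in S phase, and more RNA per cell cannot be told apart.

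No histone gene was called in the BptfΔ line with the fold minimum, against 5.25% higher and 8.59% lower among all genes, and 47 of the 63 members had an unadjusted p under 0.05, against 57.6% of all genes. DESeq2 called 1, H1f10, as lower. Fitted with its own WT libraries alone the line had 3 calls (H1f10, H2ac1 and H4c17), and the newer quasi-likelihood fit had 1 (H2ac1). With the adjusted p alone (edgeR), 31 of 63 rose and 0 fell, against 21.4% and 20.2% of all genes. The log2 fold change was positive for 59 of 63 members with a median of 0.48, against 0.01 over all genes. By type, 5 of 8 H1, 3 of 15 H2A, 6 of 16 H2B, 8 of 12 H3 and 9 of 12 H4 genes rose. The count of 31 became 49 of 63 (46 higher, 3 lower) when the line was fitted with its own WT libraries alone, 2 when the batches were not modelled, and 16 to 19 when 1 library of batch C was left out.

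Among the linker histone genes, H1f2 went from 316 and 299 in WT to 511 and 500.0 in BptfΔ, a rise of 0.72 on the log2 scale (SE 0.083, adjusted p = 4.27e-08, edgeR). H1f5 went from 412 and 393 to 657 and 639 (0.69, SE 0.065, adjusted p = 1.23e-09, edgeR). H1f4 went from 193 and 189.6 to 292 and 308 (0.65, adjusted p = 1.35e-05, edgeR). In each of these 3 genes both BptfΔ libraries were well above both WT libraries. H1f3 rose from 548 and 520.3 to 769 and 753 (0.51, adjusted p = 2.16e-07, edgeR). The most abundant of them, H1f1, was 713 and 694 in WT and 866 and 881 in BptfΔ and narrowly missed the threshold (0.31, adjusted p = 0.0114, edgeR).

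H1f0, outside the clusters, moved with the clustered linker histone genes: 58.7 and 54.9 in WT and 90.0 and 86.7 in BptfΔ, a rise of 0.64 (SE 0.075, adjusted p = 6.54e-08, edgeR) without overlap. H1f10 was instead 2.05 and 2.57 in WT and 0.898 and 1.39 in BptfΔ (-0.999, adjusted p = 0.0204, edgeR), a difference that did not pass the test by edgeR. H1f6 was 6.19 and 6.59 in WT and 6.82 and 7.57 in BptfΔ, with a log2 fold change of 0.17 (SE 0.27).

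Among the core histone genes the rises were of similar size. H2ac4 went from 38.5 and 39.2 to 59.8 and 54.8 (0.56, adjusted p = 0.000262, edgeR) and H2ac20 from 29.8 and 27.8 to 41.5 and 40.5 (0.51, adjusted p = 0.0024, edgeR). H2ac8 was 9.87 and 9.51 in WT and 14.8 and 14.1 in BptfΔ and did not pass (0.57, adjusted p = 0.012, edgeR). H2bc18, the highest H2B gene, rose from 573 and 549 to 733 and 734 (0.39, adjusted p = 7.78e-05, edgeR), and H2bc3 from 107 and 104 to 144 and 137 (0.41, adjusted p = 0.00084, edgeR). For all 5 genes the libraries of WT and BptfΔ did not overlap.

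H3c2 rose from 119 and 116 to 189 and 175 (0.63, adjusted p = 1.28e-05, edgeR), H3c8 from 75.4 and 79.6 to 97.9 and 104 (0.38, adjusted p = 0.000819, edgeR) and H3c3 from 77.7 and 76.3 to 107 and 97.6 (0.41, adjusted p = 0.00617, edgeR). H4c4 rose from 130.1 and 138 to 187 and 194 (0.50, adjusted p = 1.96e-06, edgeR) and H4c6 from 52.9 and 53.7 to 73.5 and 74.9 (0.48, adjusted p = 0.000501, edgeR). H4c2 rose from 32.9 and 35.3 to 45.6 and 44.7 (0.40, adjusted p = 0.00519, edgeR). Both groups of libraries were again apart in every one of these 6 genes. Several of these passes depended on the settings: H4c2 passed the adjusted p in 7 of 13 alternatives, and H2ac20 and H3c3 in 8 of 13 each. H2ac6 had the largest change past the threshold (0.77, adjusted p = 0.000365, edgeR) and was named after its values were seen.

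The other members seen in every batch gave mixed values in this line. H2bc4 rose from 10.7 and 10.6 to 16.1 and 15.4 (0.56, adjusted p = 0.00101, edgeR) and H4c9 from 23.3 and 27.5 to 35.1 and 33.1 (0.42, adjusted p = 0.00976, edgeR), but H4c9 passed in only 3 of 13 alternatives, with an adjusted p of up to 0.153. H2bc21 was 2.15 and 2.04 in WT and 3.95 and 3.29 in BptfΔ (0.78, adjusted p = 0.0228, edgeR), and H3c14 differed by -0.08. The sum of the 7 members seen in every batch had a log2 ratio of 0.68, and that of the other 58 a ratio of 0.47. Most of the sum of the 7 was H1f2: 316 and 299 of 416 and 399 in WT, and 511 and 500 of 660 and 642 in BptfΔ. Only 3 members besides H3c14 had a negative value: H1f10, the testis gene H2ac1 (-1.14, adjusted p = 0.0252, edgeR) and H4c17 (-1.07, adjusted p = 0.0632, edgeR), both of the latter below 4 CPM and named after their values were seen.

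**Figure D3:**
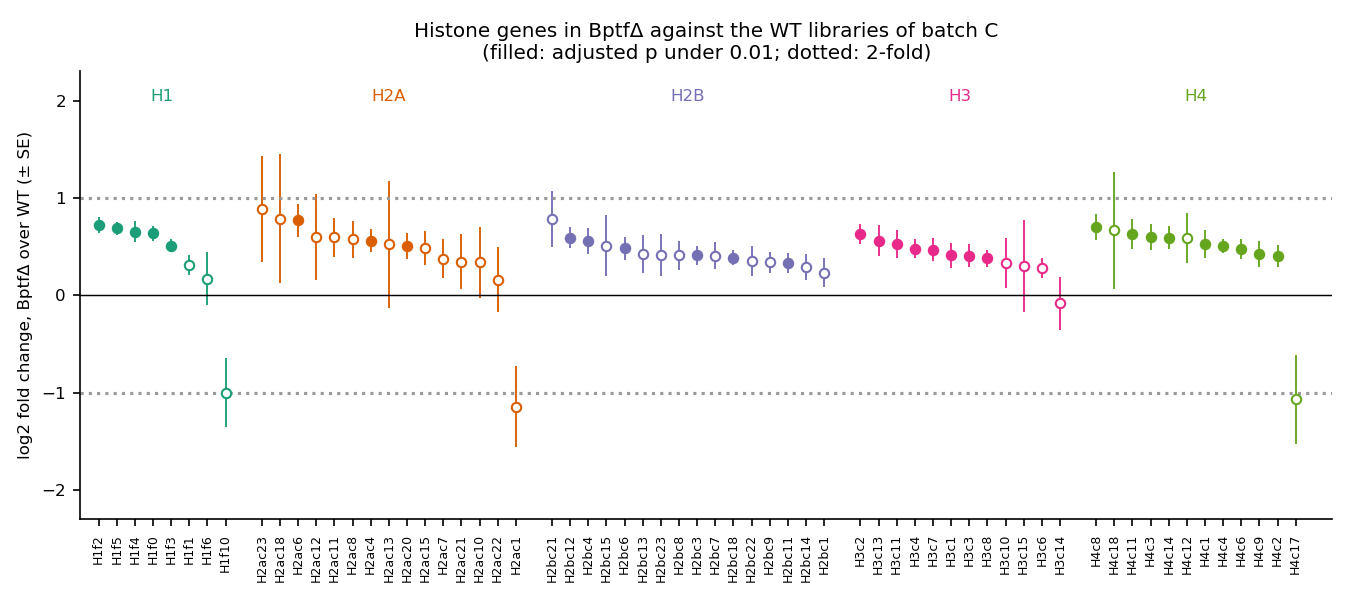
Log2 fold change of each of the 63 tested histone genes between the BptfΔ and WT libraries of batch C, ordered within each histone type, with bars of 1 standard error and filled points where the adjusted p was under 0.01. Nearly all points lie between 0 and 1, and 4 low-level genes (H1f10, H2ac1, H4c17 and H3c14) lie below 0.

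Other genes of the same pathway were read against the 21.4% of all genes that rose and the 20.2% that fell in BptfΔ by the adjusted p alone. Slbp, which codes for the stem-loop binding protein, was 118 and 122 in WT and 119 and 118 in BptfΔ (-0.01, adjusted p = 0.895, edgeR). Of 18 genes for histone mRNA end processing and transcription, 1 rose and 6 fell by the adjusted p alone, and of 18 histone chaperones 2 rose and 7 fell. Of 26 S phase and replication genes, 5 rose and 8 fell, and 1 was called: Ccne1, cyclin E1, at 355 and 352 in WT and 166 and 178 in BptfΔ (-1.04, SE 0.058, adjusted p = 2.56e-14, edgeR). Of 9 tested genes for replacement variants, 5 rose and 1 fell.

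Other markers moved in the same libraries. The tailless RNAs summed to 4238 and 4094 in WT and 4868 and 5661 in BptfΔ. The ratio of the 58 mostly tailless histone genes to these RNAs was 0.986 and 0.999 in WT and 1.18 and 1.01 in BptfΔ, so the lower BptfΔ ratio lay close to WT. Of the 6 tailless RNAs tested, 1 rose and 1 fell by the adjusted p alone. The 7 primitive endoderm markers all fell (sum 145 to 153 in WT and 13.9 to 14.4 in BptfΔ, none at 0), while the mESC marker sum was 2611 and 2677 in WT and 3898 in both BptfΔ libraries. Fibroblast markers summed to 10.5 to 10.6 in WT and 5.95 to 6.53 in BptfΔ (3 of 5 tested called lower). The part of these markers in the histone values was not tested.

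WSTF is the subunit of the WICH complex. In batch A the summed histone level was 102 and 95.3 in WT and 175 and 172 in WstfΔ (log2 ratio 0.82). H1f0 alone made up most of this sum, at 73.9 and 69.3 in WT and 119 and 115 in WstfΔ. Of the 63 members, 2 were called higher and 0 lower, against 3.87% and 6.57% of all genes. Both were among the 7 members seen in every batch. Most of the other 56 tested had few counts in batch A, so the share over 63 says little. By the adjusted p alone 3 rose and 0 fell (16.4% and 18.3% of all genes): H1f10, H2bc4 and H1f0, all seen in every batch. The WT libraries of batch A serve both this line and Rsf1Δ.

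H1f10, a linker histone gene outside the clusters, was 6.82 and 5.94 in WT and 24.1 and 23.9 in WstfΔ, a rise of 1.91 (SE 0.17, adjusted p = 3.96e-10, edgeR). H2bc4 was 7.46 and 5.99 in WT and 15.8 and 15.1 in WstfΔ (1.20, SE 0.14, adjusted p = 1.04e-07, edgeR). H1f0 was 73.9 and 69.3 in WT and 119 and 115 in WstfΔ (0.71, SE 0.073, adjusted p = 9.3e-09, edgeR). In none of these genes did WT and WstfΔ overlap. The WT values of H1f10 in batch A were the lowest of all WT batches outside batch C, and those of WstfΔ lay within the range of the other WT batches.

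H1f2 was 5.47 and 5.64 in WT and 4.77 and 5.78 in WstfΔ, and the groups overlapped. The 58 members not seen in every batch summed to 4.75 and 4.69 in WT and 7.22 and 6.95 in WstfΔ, and none of them passed the adjusted p. The replacement variants moved in the same libraries: 8 of 9 rose by the adjusted p alone (16.4% of all genes), among them H2ax (161 and 146 in WT, 308 and 344 in WstfΔ, 1.08) and Macroh2a2 (25.1 and 22.8, 51.9 and 51.3, 1.11). Slbp did not differ beyond its error (0.00, SE 0.082). Of the 26 S phase genes, 8 rose and 3 fell by the adjusted p alone (16.4% and 18.3% of all genes). The primitive endoderm marker sum was 330 to 338 in WT and 133 to 139 in WstfΔ. The mESC markers summed to 2527 to 2618 in WT and 3763 to 3809 in WstfΔ, and all 6 rose by the adjusted p alone. Fibroblast markers summed to 21.1 to 22.5 in WT and 21 to 25.4 in WstfΔ, with 3 of 5 tested called lower and 1, Thy1, higher. The part of these lists in the histone values was not tested.

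In the Rsf1Δ line of batch A the histone sum was 113 and 103, against 102 and 95.3 in WT, again without overlap but close (log2 ratio 0.14). The ratio was 0.069 to 0.20 when 1 library was left out and 0.31 without H1f0. No member was called (edgeR, with 5 of 63 at an unadjusted p under 0.05, against 39.4% of all genes, and 0 by DESeq2), against 0.65% higher and 5.26% lower among all genes. The 5 included 3 of the 7 members seen in every batch. Most of the other 56 tested had few counts in batch A, so the share over 63 says little. By the adjusted p alone 1 rose and 1 fell, both linker histone genes, against 7.45% and 13.1% of all genes. H1f10 was 6.82 and 5.94 in WT and 12.5 and 10.2 in Rsf1Δ (0.82, SE 0.17, adjusted p = 0.00046, edgeR). H1f2 was 5.47 and 5.64 in WT and 3.35 and 3.62 in Rsf1Δ (-0.67, SE 0.17, adjusted p = 0.00283, edgeR). Neither gene overlapped between the groups, but H1f2 no longer passed the adjusted p whenever 1 library was left out, nor did H1f10 without WT replicate 2 or without Rsf1Δ replicate 1. H1f0 was 77.1 and 72.8 in Rsf1Δ, which overlaps the WT values of 73.9 and 69.3. The primitive endoderm marker sum, 139 to 147 in Rsf1Δ, was lower than in WT here too, and that of the fibroblast markers was 11.6 to 12.9, against 21.1 to 22.5 in WT.

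**Figure D4:**
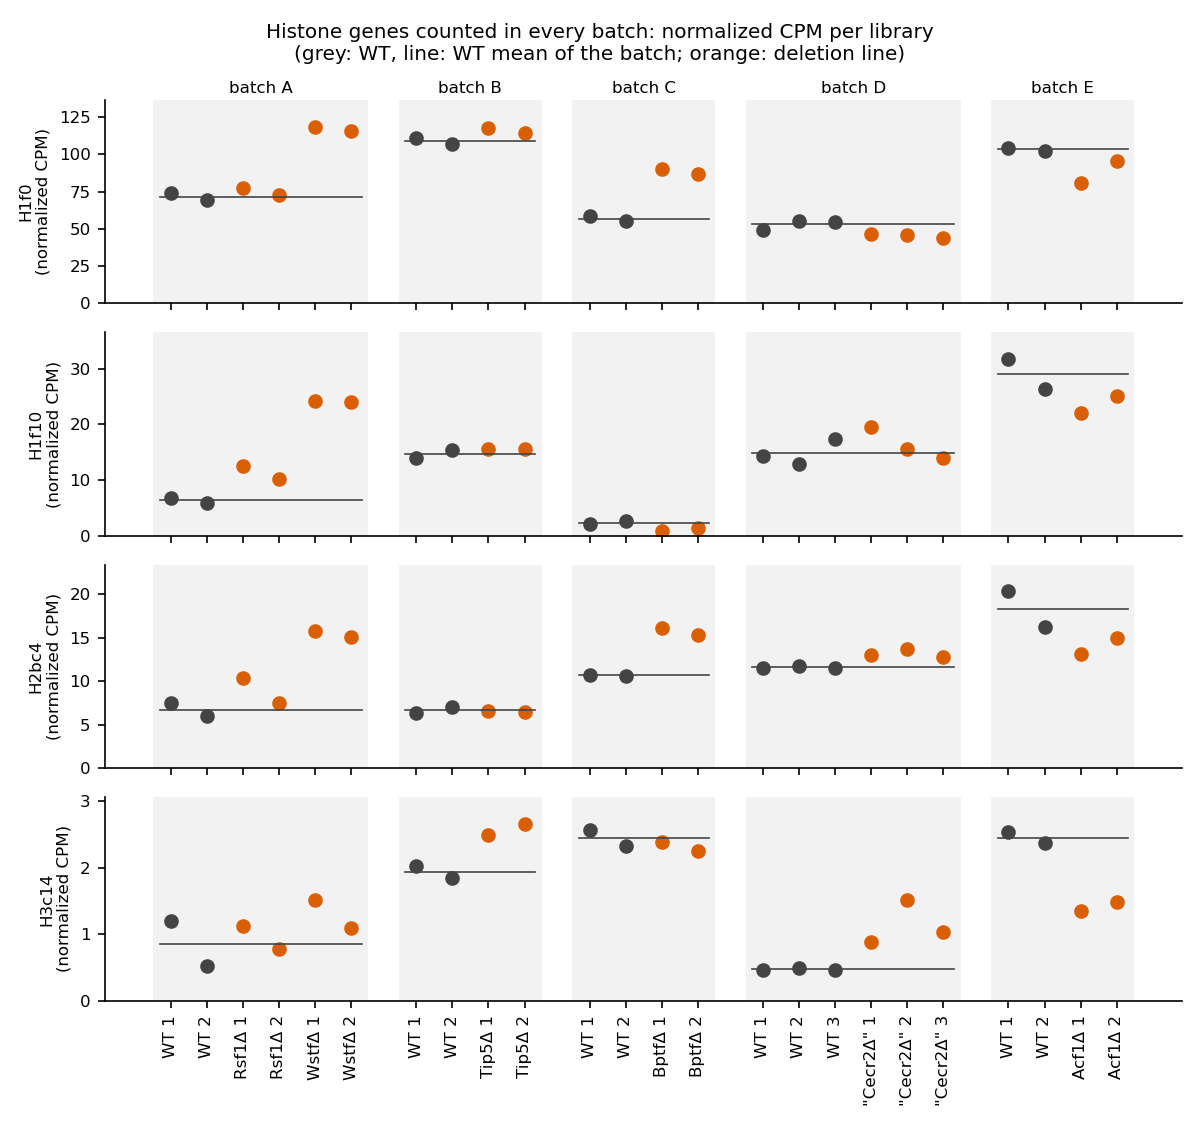
Level of H1f0, H1f10, H2bc4 and H3c14, 4 of the 7 members seen in each of batches A, B, D and E, in every library (normalized CPM, linear axes from 0), with WT in grey, deletion lines in orange and the WT mean of each batch as a line. H1f0, H1f10 and H2bc4 are higher in WstfΔ than in WT of batch A, and WT levels of the same gene differ between batches.

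ACF1 is a subunit of the ACF and CHRAC complexes. The histone sum was 178 and 166 in WT of batch E and 139.7 and 165 in Acf1Δ, so the higher Acf1Δ library lay just below the lower WT library (log2 ratio -0.18, and -0.30 to -0.063 when 1 library was left out). The 7 members seen in every batch had a ratio of -0.24, while the other 58 summed to 8.69 and 10.4 in WT and 12.8 and 15.6 in Acf1Δ (0.57). Of the 63 members, 3 were called higher and 0 lower, against 1.14% and 3.32% of all genes.

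Of the 56 tested members not seen in every batch, 31 had a positive and 16 a negative log2 fold change. The 3 called genes are replication-dependent and had few counts. H3c6 was 0.111 and 0.037 in WT and 0.411 and 0.494 in Acf1Δ (2.54, SE 0.70, adjusted p = 0.00451, edgeR). H4c4 was 0.295 and 0.222 in WT and 0.56 and 0.741 in Acf1Δ (1.32, SE 0.36, adjusted p = 0.00654, edgeR). H2bc3 was 0.0737 and 0.037 in WT and 0.187 and 0.459 in Acf1Δ (2.46, SE 0.75, adjusted p = 0.00989, edgeR). The groups do not overlap, but each value rests on 1 to 21 counts, and all 3 calls were lost without WT replicate 1 or without Acf1Δ replicate 2. Without WT replicate 2, 1 call was left, and with the WT libraries of batch E alone 0 were left. H2bc3 passed the adjusted p with the same direction in only 3 of 13 alternatives, H4c4 in 7 and H3c6 in 8. The tailless RNAs moved in the same libraries, with sums of 0.479 and 0.518 in WT and 3.73 and 6.60 in Acf1Δ: Rpph1 (4.13), Rmrp (4.27) and Scarna13 were called higher. The part of these RNAs in the 3 calls was not tested.

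By the adjusted p alone the same 3 rose and 1 fell, against 15.1% and 16.7% of all genes. The gene that fell, H1f0, was 104 and 102 in WT and 80.6 and 95.5 in Acf1Δ (-0.23, SE 0.071, adjusted p = 0.00985, edgeR). With replicate numbers as a block it did not pass. H1f10 (31.7 and 26.4 in WT, 22.1 and 25.2 in Acf1Δ) and H2bc4 (20.3 and 16.3, 13.2 and 15) did not pass the test. Both genes had their highest WT levels in batch E. H3c14 was 2.54 and 2.37 in WT and 1.34 and 1.48 in Acf1Δ and did not pass either. H2ac12 was 2.10 and 2.70 in WT and 2.95 and 3.07 in Acf1Δ, above its 1.36 and 0.584 in WT of batch C, and at most 0.0711 in the libraries of batches A, B and D. Among replacement variants, H3f3a, a gene for H3.3, was 103 and 74.5 in WT and 33.6 and 35.9 in Acf1Δ (-1.35, adjusted p = 1.57e-08, edgeR). Of the S phase list, 13 of 26 rose and none fell by the adjusted p alone, read against the same 15.1% and 16.7%. Primitive endoderm markers summed to 242 to 249 in WT and 269 to 306 in Acf1Δ, and fibroblast markers to 27.1 to 27.2 in WT and 15.2 to 15.5 in Acf1Δ (3 of 5 tested called lower). The part of either in the histone values was not tested.

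**Figure D5:**
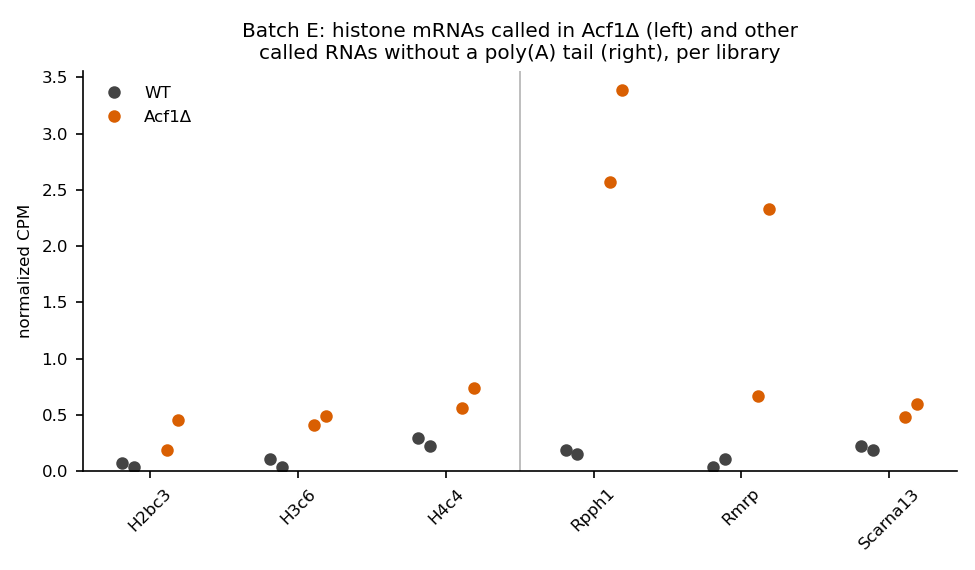
Level of H2bc3, H3c6 and H4c4, the 3 histone genes called higher in Acf1Δ (left of the line), and of Rpph1, Rmrp and Scarna13, the 3 other tailless RNAs called higher (right), in each of the 2 WT and 2 Acf1Δ libraries of batch E (normalized CPM). The genes were chosen by their calls, so both Acf1Δ libraries lie above both WT libraries by that choice, and all values are below 3.5.

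In the Cecr2Δ-labelled libraries the histone sum was 93.3, 90.3 and 85.9, against 87.7, 92.5 and 96.0 in WT of batch D, and the groups overlapped (log2 ratio -0.03, which turned to 0.19 without H1f0). H3c14 alone was called, against 0.784% higher and 2.33% lower among all genes. It was 0.455, 0.488 and 0.463 in WT and 0.889, 1.52 and 1.03 in the Cecr2Δ-labelled libraries, without overlap (1.29, SE 0.27, adjusted p = 0.00063, edgeR). Without Cecr2Δ replicate 2 the difference was 1.04 and no longer called. By the adjusted p alone H3c14 rose and H1f0 fell, against 9.52% and 8.83% of all genes. H1f0 was 49.4, 55.1 and 54.8 in WT and 46.2, 46.1 and 44.1 in the Cecr2Δ-labelled libraries (-0.22, SE 0.060, adjusted p = 0.00583, edgeR) and did not pass the adjusted p with the replicate block. H1f10 overlapped between the groups (14.2, 12.8 and 17.3 against 19.6, 15.6 and 14). Slbp fell by 0.28 (adjusted p = 0.00144, edgeR). The telomerase RNA Terc, another tailless RNA, was 0.0569 to 0.163 in WT and 0 in the 3 others, all near or below the level of 3 counts. Primitive endoderm markers summed to 101 to 117 in WT and 29.5 to 34.1 in the Cecr2Δ-labelled libraries, and fibroblast markers to 20.2 to 21.2 and 17.7 to 18.2 (0 of 5 tested called). The part of either in the histone values was not tested.

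TIP5 is the subunit of the NoRC complex. In batch B the histone sum was 148 and 145 in WT and 156 and 152 in Tip5Δ, close together but without overlap (log2 ratio 0.07, and 0.021 without H1f0). No member was called by edgeR or DESeq2 and none passed the adjusted p alone (5 of 63 had an unadjusted p under 0.05, against 28.2% of all genes), against 0.0829% higher and 2.63% lower called among all genes and 2.84% and 6.23% by the adjusted p alone. The 5 included 2 of the 7 members seen in every batch. Most of the other 56 tested had few counts in batch B, so the share over 63 says little. H1f0 was 111 and 107 in WT and 117 and 114 in Tip5Δ, and H1f10 was 14 and 15.3 against 15.5 and 15.6. H1f2 was 5.63 and 5.02 in WT and 4.03 and 3.58 in Tip5Δ (-0.49, adjusted p = 0.0421, edgeR), apart in all libraries but not past the threshold. For the 58 members not seen in every batch, the Tip5Δ sum of 6.48 and 5.87 overlapped the WT sum of 6.36 and 6.41. Primitive endoderm markers summed to 333 to 353 in WT and 73.1 to 80.2 in Tip5Δ, and fibroblast markers to 34.4 to 34.8 in WT and 19.7 to 24.9 in Tip5Δ (3 of 5 tested called lower). The part of either in the histone values was not tested.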

How the data were processed

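The deposited table held the authors' raw counts per gene and library, keyed by Entrez ID, with a gene width column. The submitters' processing notes name bcl2fastq 2.17, HISAT2 and build mm10. The labels name a stranded mRNA kit and the study's methods another TruSeq kit, and counting options are not given in the sources used here. IDs were joined to RefSeq (24570 of 24594 matched). The H1- symbols matched through synonyms. Members and gene lists were chosen with earlier results of these data known.

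Genes were filtered with filterByExpr by group (15682 kept, 63 of the 65 histone genes), scaled by TMM and fitted in R 4.3.3 with edgeR 4.0.16 (quasi-likelihood test, batch and genotype as terms, all 24 libraries, Benjamini-Hochberg adjustment over all genes). Calls need an adjusted p under 0.01 and an absolute log2 fold change over 1. The genes named were those called per line (at most 4 each way, mean of at least 10 counts, no overlap), the 2 highest per kilobase per type in batch C and in the other WT libraries, all H1 genes, list genes called (at most 3 per list and line) and Slbp. H3c6, H2ac6, H2ac1, H2bc1 and H4c17 fall outside this rule and were named after their values were seen.

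Alternatives were DESeq2 1.42.0, other scalings, filters and likelihood methods, no batch term, own WT libraries alone, a replicate block and leaving out each library. The adjusted p alone as the call rule in BptfΔ was recomputed under each of them, and the ratio of each type's sum between WT batches was recomputed without its highest member outside batch C. Both choices were made after seeing the data. The scripts were tested on simulated data. Stem-loops were read from GENCODE transcripts of GRCm38 and promoters from RefSeq (GRCm38.p6). No per-sample column was left unused.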

Additional observations from a re-analysis of the deposited data

Results flagged for a closer look

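H1f0 and H1f2 stood out because their values moved in opposite directions in different lines, each against the WT libraries of its own batch. They were picked for having passed the adjusted p in both lines with opposite signs, so the differences below are descriptions and carry no test. H1f0 rose in WstfΔ and BptfΔ and fell in the Cecr2Δ-labelled libraries and in Acf1Δ. The difference in its log2 fold change was 0.93 (SE 0.094) between WstfΔ and the Cecr2Δ-labelled libraries, 0.94 (SE 0.10) between WstfΔ and Acf1Δ, 0.86 (SE 0.096) between BptfΔ and the Cecr2Δ-labelled libraries, and 0.87 (SE 0.10) between BptfΔ and Acf1Δ. The rises kept their direction and passed in 12 of 13 alternatives each, but the falls did so in only 5 of 13 alternatives in Acf1Δ and 7 of 15 in the Cecr2Δ-labelled libraries. H1f2 rose in BptfΔ (12 of 13 alternatives) and fell in Rsf1Δ (8 of 13), a difference of 1.39 (SE 0.19). H1f2 was at 299 to 511 in batch C and 3.35 to 5.64 in the WT and Rsf1Δ libraries of batch A. These lines differ in batch, and their clones and batches cannot be told apart from the deletions.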

How the results depend on the processing

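The comparison of WT batches gave 51 to 61 calls over 10 alternatives (59 to 60 without 1 library). With no batch term, which mixes the batch C libraries with the others, the calls became 0 in each of WstfΔ, Acf1Δ and the Cecr2Δ-labelled libraries, and 1 in BptfΔ (H1f10), where 2 passed the adjusted p alone. The same setting turned the sign of H1f10 in Rsf1Δ (-0.27), H3c14 in the Cecr2Δ-labelled libraries (-0.39), H1f0 (0.20), H3c6 (-5.49), H4c4 (-5.20) and H2bc3 (-5.84) in Acf1Δ, and H2ac1 in BptfΔ (1.44). With no fold minimum, 2 members passed in Rsf1Δ, 2 in the Cecr2Δ-labelled libraries and 31 in BptfΔ. Without the expression filter, 2 were called in the Cecr2Δ-labelled libraries and 5 in Acf1Δ. With own WT libraries alone, 0 were called in Acf1Δ, 3 in BptfΔ (H1f10, H2ac1 and H4c17), and 49 in BptfΔ by the adjusted p alone. In BptfΔ, DESeq2 called 1 and the newer quasi-likelihood fit 1 (H2ac1). The cause was not tested.

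Leaving out 1 library at a time gave 0 calls in Rsf1Δ and Tip5Δ, 2 in WstfΔ, 0 to 2 in the Cecr2Δ-labelled libraries, 0 to 4 in Acf1Δ, 0 to 1 in BptfΔ and 16 to 19 there by the adjusted p alone. The log2 ratio of the summed level ranged from 0.069 to 0.20 in Rsf1Δ, 0.77 to 0.87 in WstfΔ, 0.054 to 0.090 in Tip5Δ, -0.069 to -0.0036 in the Cecr2Δ-labelled libraries, -0.30 to -0.063 in Acf1Δ and 0.47 to 0.50 in BptfΔ. Without H1f0 it was 0.31, 1.07, 0.021 and 0.19 in the first 4. In Tip5Δ it was 0.030 with library size alone as the scaling. In BptfΔ it was 0.52 without H1f1 and 0.68 for the 7 members seen in every batch. Deviations of libraries with the same replicate number correlated at -0.067 to 0.045, so the numbers do not pair them. With the replicate block, 2 members were called in Acf1Δ (without H2bc3), 28 passed the adjusted p alone in BptfΔ, and H1f0 did not pass in Acf1Δ or the Cecr2Δ-labelled libraries. The ratio of WT batch C to the other WT libraries, without the highest member of each type outside batch C, was 96.2 for H1, 204 for H2A, 328 for H2B, 427 for H3 and 493 for H4. In batches A, B, D and E 16 of the 65 members had a mean of at least 10 counts in any of them. Their libraries, other than those of WstfΔ (13.4 to 13.6 M), held 22.9 to 36.7 M counts, and those of batch C 16.8 to 18.9 M. The part of depth in the number of members seen was not tested.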

Other observations

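The chromosomal clusters gave similar values in BptfΔ. By the adjusted p alone, 26 of 52 members of the chromosome 13 cluster and 4 of 9 of the chromosome 3 cluster rose, against 21.4% of all genes, with median log2 fold changes of 0.48 and 0.51 (0.01 over all genes). H2bc1, an H2B gene known from testis and named after its values were seen, was 23.4 and 23.2 in WT of batch C and 27.4 and 27.3 in BptfΔ. In batch A it was 0.199 and 0.258 in WT and 0.578 and 0.659 in WstfΔ (log2 fold change 1.42, adjusted p = 0.0433, edgeR). This did not pass the threshold and rests on 5 and 6 counts in WT and 8 and 9 in WstfΔ. H2bc1 was at 0 in the 3 WT libraries of batch D.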
